A study of Homo sapiens with 8 samples.

Results

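The mitochondrial ribosomal protein genes of A375 cells were measured with and without serum. They were taken as the protein-coding genes whose symbol begins with MRPL or MRPS followed by a digit, which gave 78 of the 58051 genes counted, 49 named for the large subunit (MRPL) and 29 for the small subunit (MRPS). A375 is a human melanoma cell line. Libraries came from 4 lines labelled wild type (WT1 to WT4), grown in DMEM with 10% FBS, then rinsed and kept for 12 h in DMEM either with 10% FBS (serum, n = 4) or with none (serum-free, n = 4). Each line gave 1 library per condition, so the spread given here is that between 4 lines, all derived from a single cell line. How the 4 lines were established is not given for these libraries in the sources used here, and the deposited counts of WT4 carry a different line name, so its identity rests on the labels.

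Mitochondria carry their own ribosome, the mitoribosome, which translates the few messenger RNAs encoded by mitochondrial DNA, all of them for subunits of the respiratory chain and ATP synthase. Its ribosomal RNAs are transcribed inside the organelle, but all of its proteins are encoded by nuclear genes, made in the cytosol and imported. Some are counterparts of bacterial ribosomal proteins (names in uL, bL, uS or bS), whereas others exist only in mitochondria (mL or mS). Several regulators that act on these promoters, such as NRF1, GABP and YY1, also act on other nuclear genes for mitochondrial proteins.

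Promoter sequences are shown for the most strongly lowered large subunit genes, the most strongly lowered small subunit gene and *MRPS6*. They were picked because 37 of the 78 members were called lower without serum and *MRPS6* alone was called higher in the same fit. Each window runs from 250 bases before to 50 bases after a RefSeq start on GRCh38.p14 and reads 5′ to 3′ on the strand of the gene. *MRPL47* is at chr3:179604589-179604888 on the minus strand, *MRPL33* at chr2:27771469-27771768, *MRPS35* at chr12:27710582-27710881 and *MRPS6* at chr21:34073328-34073627, these on the plus strand. Capitals mark matches on either strand to the cores of NRF1 (GCATGCGC), ETS factors such as GABP (CCGGAAG) and YY1 (AAGATGG), to the E-box CACGTG and to the GC box GGGCGG, with overlapping matches run together.
MRPL47: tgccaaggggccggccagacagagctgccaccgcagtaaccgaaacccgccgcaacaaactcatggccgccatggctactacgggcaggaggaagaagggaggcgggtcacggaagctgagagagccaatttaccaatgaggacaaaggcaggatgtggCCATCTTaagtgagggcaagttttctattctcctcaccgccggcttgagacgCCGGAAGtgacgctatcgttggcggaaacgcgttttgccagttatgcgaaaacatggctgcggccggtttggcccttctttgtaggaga
MRPL33: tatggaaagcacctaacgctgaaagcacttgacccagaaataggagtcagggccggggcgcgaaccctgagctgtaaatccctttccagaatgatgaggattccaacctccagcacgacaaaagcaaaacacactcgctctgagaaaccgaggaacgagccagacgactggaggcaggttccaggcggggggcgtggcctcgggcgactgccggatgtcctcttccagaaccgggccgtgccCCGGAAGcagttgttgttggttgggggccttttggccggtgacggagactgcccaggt
MRPS35: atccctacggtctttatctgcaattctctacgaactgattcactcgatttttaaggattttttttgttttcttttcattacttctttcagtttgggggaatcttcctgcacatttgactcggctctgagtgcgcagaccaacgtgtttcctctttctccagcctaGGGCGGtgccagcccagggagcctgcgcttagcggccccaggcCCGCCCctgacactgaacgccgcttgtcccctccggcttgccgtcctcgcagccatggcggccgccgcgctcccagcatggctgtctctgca
MRPS6: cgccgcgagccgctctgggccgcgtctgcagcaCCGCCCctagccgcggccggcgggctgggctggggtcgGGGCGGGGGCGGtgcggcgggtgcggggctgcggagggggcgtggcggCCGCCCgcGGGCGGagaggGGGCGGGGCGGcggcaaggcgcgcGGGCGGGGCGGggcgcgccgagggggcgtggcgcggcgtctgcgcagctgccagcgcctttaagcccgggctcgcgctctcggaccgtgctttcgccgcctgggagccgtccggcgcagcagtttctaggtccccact
*MRPL47* held 1 ETS core and 1 YY1 core, *MRPL33* held 1 ETS core, *MRPS35* held 2 GC boxes and none of the other motifs, and *MRPS6* held 9 GC boxes and none of the other motifs. Windows were found for 69 of the 78 members, 85 windows in all. The ETS core stood in 38.8% of the member windows, against 15.8% of the windows of genes tested and 10.3% of all 35116 windows. The YY1 core stood in 31.8% of member windows, against 6.6% and 5.8%. The NRF1 core stood in 7.1%, against 4.5% and 3.1%, the E-box in 10.6%, against 9.1% and 7.3%, and the GC box in 60.0%, against 63.8% and 45%. In the 42 windows of members that fell without serum, the ETS core stood in 45.2%, the YY1 core in 28.6% and the GC box in 47.6%, against 32.6%, 34.9% and 72.1% of the 43 windows of the other members. The NRF1 core stood in 7.1% against 7.0%, and the E-box in 9.5% against 11.6%. Some genes have several windows, which can overlap. By gene, the ETS core stood in 16 of 32 against 14 of 37, the YY1 core in 10 against 14 and the GC box in 16 against 26. These matches describe the letters of the windows and were not tested as sites.

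Libraries held between 29759279 and 73341551 reads assigned to genes, and the members together took 4210 to 4378 counts per 1000000 reads on genes (CPM, with TMM-scaled library sizes) with serum and 3474 to 3854 CPM without. The share of reads mapped to several places was 22.7% in WT1 with serum and 16.8% in WT2 with serum, against 5.73 to 10.1% in the other libraries, and values without these 2 serum libraries are given beside the first result. Of the melanocytic markers, *MITF* was at 30.1 to 44.2 CPM and *S100B* at 13.6 to 34.9 CPM, whereas *SOX10* was listed at 0 in every library and *TYR* and *TYRP1* were at or near 0. The others were low, with *PMEL* at 0.19 to 0.94, *MLANA* at 0.71 to 1.44, *DCT* at 0.07 to 2.90 and *S100A1* at 2.92 to 6.29 CPM. Summed markers of keratinocytes ranged from 11.7 to 21.7, of endothelium from 0.421 to 1.87 and of blood from 0.0265 to 0.288 CPM. *KRT14* made up most of the keratinocyte sum. The fibroblast sum was 6.41 to 10.3 CPM with serum and 7.96 to 10.4 CPM without. Of the markers, *MITF* fell without serum (log2 fold change -0.28, edgeR's adjusted p = 0.0496), whereas *S100A1* (0.84, edgeR's adjusted p = 0.00605) and the fibroblast marker *PDGFRA* rose (1.77, edgeR's adjusted p = 0.00767, 0.491 to 0.951 CPM with serum and 1.39 to 4.03 CPM without). With the line as a block, *S100B* (0.26, edgeR's adjusted p = 0.0469) and the fibroblast marker *DCN* (0.90, 0.0125) also passed as higher and the melanocytic marker *DCT* as lower (-0.89, 0.0251). The other fibroblast markers did not share a rise. From WT1 to WT4, *LUM* was at 7.10, 3.30, 3.34 and 4.51 CPM with serum and 4.77, 2.53, 3.65 and 3.54 CPM without. *COL1A1* went in both directions among the lines, and *COL1A2* and *COL3A1* were near 0. The part of these markers in the results was not tested. In libraries from whole cultures, fewer cells expressing a gene and less RNA per cell cannot be told apart.

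Many mitochondrial ribosomal protein genes fell by a small amount without serum. All 78 members passed the filter on low counts, and 37 of them (47.4%) fell at an adjusted p under 0.05 (edgeR's quasi-likelihood F-test, Benjamini-Hochberg adjusted over 17671 genes), whereas 14.0% of all genes tested were called lower. *MRPS6* alone rose, and 11.1% of all genes tested were called higher. The other 40 members did not pass the test in either direction. The large subunit counted 27 lower of 49 (55.1%) and the small subunit 10 lower and 1 higher of 29 (34.5% lower). The median log2 fold change, as serum-free minus serum, was -0.28 for the large and -0.22 for the small subunit, against 0.03 for all genes and 0.00 for all protein-coding genes tested. Changes were modest throughout, from -0.67 to 0.56 on the log2 scale.

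With the line as a replicate block, 50 members fell (33 of the large and 17 of the small subunit) and *MRPS6* rose, against 22.4% and 23.2% of all genes called lower and higher in that fit. The genes added were *MRPL9*, *MRPL32*, *MRPL36*, *MRPL44*, *MRPL49*, *MRPL55*, *MRPS11*, *MRPS18B*, *MRPS18C*, *MRPS25*, *MRPS27*, *MRPS31* and *MRPS34*. The 4 serum and 4 serum-free values did not overlap for 36 members that were lower without serum (25 large, 11 small), against 15.0% of all genes tested. The members were lower without serum in all 4 lines for 55 genes, in no line for 2 (*MRPL45* and *MRPS6*) and in some lines for 21. All 4 lines were lower for 70.5% of the members, against 26.6% of all genes tested. In the fit without the block, which all leave-out fits used, the counts depended on single libraries and lines. Without both libraries of WT1, 6 large and 2 small subunit genes were called lower. Without those of WT2 the counts were 7 and 2, and without those of WT3 14 and 5. Calls over all genes dropped as well, to 5.35%, 6.73% and 6.47% lower in these fits. Leaving out the serum libraries of WT1 and WT2 left 5 large subunit genes lower and 0 small subunit genes called by edgeR (10 lower and 1 higher at an unadjusted p under 0.05), with medians of -0.31 and -0.20, and 3.88% of all genes lower. Upper-quartile scaling, which moved the median of all genes to 0.10, gave 17 and 4 lower calls, against 10.4% of all genes, and turned the split of all calls from 2477 lower and 1957 higher to 1843 lower and 2508 higher.

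**Figure D1:**
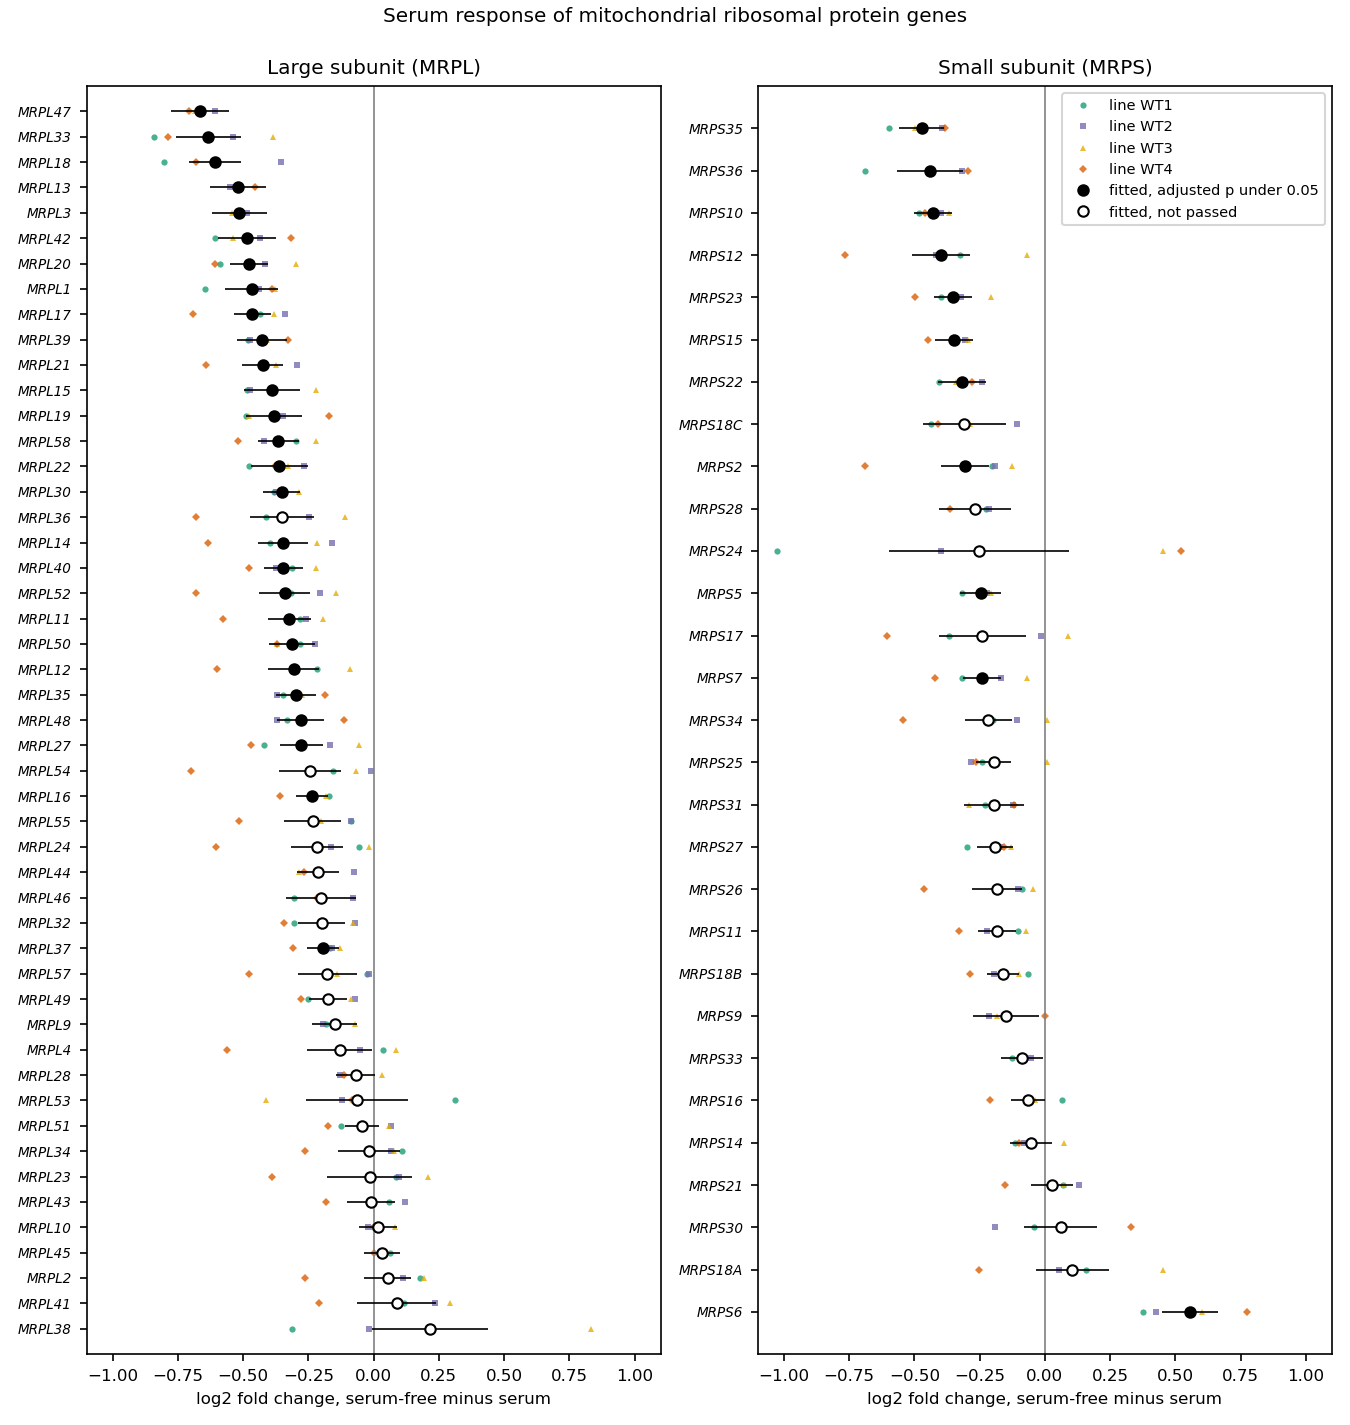
Log2 fold change (serum-free minus serum, x axis) of each of the 49 large and 29 small subunit genes, ordered by the fitted value. Black circles are edgeR's fitted values with their standard error, filled where the adjusted p was under 0.05, and coloured symbols are the differences within lines WT1 to WT4. Most genes lie left of 0, *MRPS6* lies at 0.56, and WT4 is the lowest line for 42 of the 78 genes.

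The genes of the large subunit with the most negative values were *MRPL47*, *MRPL33*, *MRPL18*, *MRPL13* and *MRPL3*. *MRPL47* encodes uL29m, which lies near the exit of the peptide tunnel. Its normalised read count was 68.7, 63.3, 68.8 and 53.8 CPM with serum and 43.4, 41.4, 42.8 and 32.9 CPM without, in the order WT1 to WT4. The highest serum-free library lay below the lowest serum library, and WT4 was the lowest line in both conditions. The log2 fold change was -0.67 ± 0.11 (SE, edgeR's adjusted p = 0.0033, and 8.36e-07 with the line block), on 1528 to 4157 reads per library.

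*MRPL33*, the gene of bL33m, was at 51.8, 43.4, 44.2 and 39.3 CPM with serum and at 28.9, 29.9, 33.8 and 22.7 CPM without. The groups did not overlap, although the difference was smaller in WT3 (-0.39) than in WT1 (-0.84). Its log2 fold change was -0.63 ± 0.13 (SE, edgeR's adjusted p = 0.00683), and 0.0548 without line WT1. *MRPL18*, whose bacterial counterpart binds the 5S ribosomal RNA, was at 58.4, 50.9, 55.5 and 48.0 CPM with serum and 33.5, 39.8, 36.5 and 29.9 CPM without. It fell by 0.61 on the log2 scale (SE 0.10, edgeR's adjusted p = 0.00334), with the smallest difference in WT2.

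*MRPL13* and *MRPL3* fell by almost the same amount in every line, with log2 differences from -0.46 to -0.55 and from -0.49 to -0.54. *MRPL13* encodes uL13m and was at 58.0, 57.8, 57.4 and 44.4 CPM with serum and 40.5, 39.5, 39.8 and 32.3 CPM without (log2 fold change -0.52 ± 0.11, edgeR's adjusted p = 0.00807). *MRPL3* encodes uL3m, whose bacterial counterpart reaches towards the peptidyl transferase centre. It was the most abundant of these 5 genes, at 252, 237, 232 and 192 CPM with serum and 175, 169, 160 and 135 CPM without (-0.51 ± 0.10, edgeR's adjusted p = 0.00745). In both genes WT4 was lowest in each condition. Without the line block, both calls were narrow when a line was left out. In edgeR, *MRPL13* was at an adjusted p of 0.0522, 0.0513 and 0.0511 without WT1, WT2 and WT3, and *MRPL3* at 0.054 without WT3. With the line block and all lines, edgeR's adjusted p was 8.12e-06 for *MRPL13* and 2.62e-06 for *MRPL3*. Leaving out a line was not tried with the block.

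**Figure D2:**
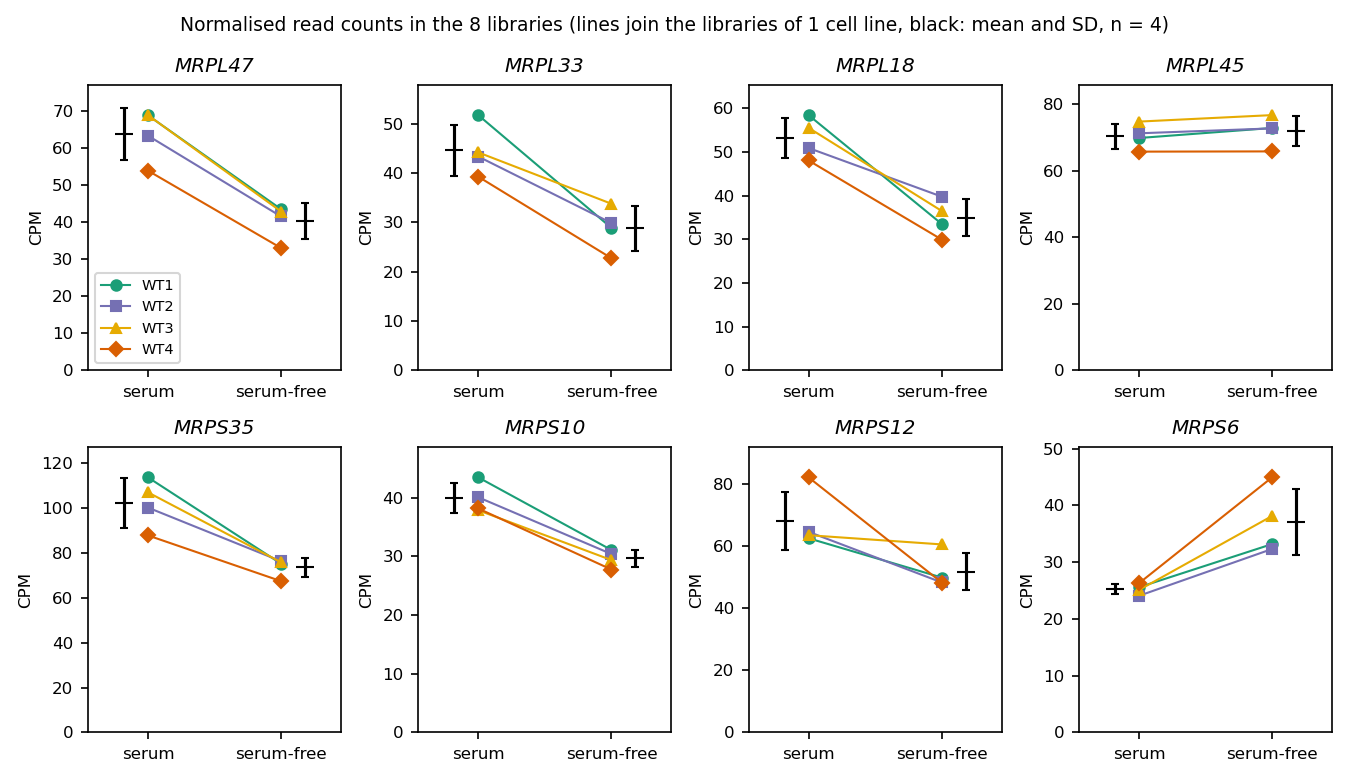
Normalised read counts (CPM, y axis from 0) of 8 members in the 8 libraries, with the serum and serum-free libraries of a line joined and black bars for the mean and SD of each condition (n = 4). *MRPL47* fell in parallel in the 4 lines, *MRPS12* differed most in WT4 (-0.77) and least in WT3 (-0.07), *MRPL45* had close values in both conditions, and *MRPS6* rose from 24.1 to 26.3 CPM with serum to 32.3 to 44.95 CPM without.

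The other 22 large subunit genes that fell had log2 fold changes from -0.49 (*MRPL42*) to -0.19 (*MRPL37*). They included *MRPL20* (-0.48 ± 0.07, edgeR's adjusted p = 0.00249), the smallest adjusted p of the members, and the genes of the uL1m, uL14m, uL15m, uL16m and uL22m proteins. *MRPL58*, which encodes a release factor relative built into the large subunit, fell by 0.36. At the base of the stalk that recruits translation factors, *MRPL11* fell by 0.32 (edgeR's adjusted p = 0.0195). It was at 51.2, 54.1, 54.7 and 55.6 CPM with serum and 42.1, 45.2, 47.8 and 37.2 CPM without, and the largest difference was in WT4 (-0.58). Its call was lost in 4 of the leave-out fits, which each left out 1 library or both libraries of a line (12 fits), with adjusted p up to 0.0867.

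*MRPL12*, the stalk protein that also binds the mitochondrial RNA polymerase, was at 17.9, 19.6, 17.6 and 22.5 CPM with serum and 15.4, 16.0, 16.5 and 14.8 CPM without. The groups did not overlap. Its value of -0.31 ± 0.10 just passed (edgeR's adjusted p = 0.0471), it did not pass in any of the 12 leave-out fits (adjusted p from 0.0527 to 0.165), and 69.5% of its exon bases are shared with another counted gene. *MRPL10*, which anchors the stalk, was at 65.1, 64.1, 66.1 and 73.2 CPM with serum and 65.0, 63.1, 69.9 and 73.2 CPM without (0.02 ± 0.07, edgeR's adjusted p = 0.905). The 3 stalk genes did not share a call, and the difference between them was not tested.

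*MRPL45* and *MRPL51* were among the large subunit genes that did not pass the test. *MRPL45*, which helps to hold the mitoribosome at the inner membrane, was at 69.9, 71.3, 74.8 and 65.8 CPM with serum and 72.9, 72.8, 76.8 and 65.8 CPM without (0.03 ± 0.07, edgeR's adjusted p = 0.771). *MRPL51*, 1 of the most abundant members, was at 118, 103, 108 and 118 CPM with serum and 109, 108, 113 and 104 CPM without (-0.04 ± 0.07, edgeR's adjusted p = 0.664). The values of both conditions overlapped for these genes.

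*MRPL41* and *MRPL2* had opposite directions among the lines. *MRPL41*, a mitochondria-specific protein, was at 43.5, 44.996, 46.3 and 69.4 CPM with serum and 47.1, 53.0, 56.7 and 60.0 CPM without, higher without serum in WT1 to WT3 and lower in WT4. *MRPL2*, the gene of uL2m, whose bacterial counterpart lies at the peptidyl transferase centre, was at 27.0, 27.6, 28.5 and 33.5 CPM with serum and 30.6, 29.9, 32.6 and 27.9 CPM without, with the same split. Their fitted values were 0.09 ± 0.15 (edgeR's adjusted p = 0.712) and 0.05 ± 0.09 (edgeR's adjusted p = 0.703). After correction for GC content with the line block, both became negative, at -0.21 (edgeR's adjusted p = 0.0061) for *MRPL41* and -0.07 for *MRPL2*. Without the serum library of WT4, in contrast, *MRPL41* passed as higher (0.27, edgeR's adjusted p = 0.0383). *MRPL38* had the most positive fitted value of the large subunit (0.22 ± 0.22, edgeR's adjusted p = 0.512) on only 53 to 148 reads per library.

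In the small subunit, *MRPS35*, *MRPS36*, *MRPS10*, *MRPS12* and *MRPS23* had the most negative values. *MRPS35*, a mitochondria-specific protein (mS35), was at 114, 100, 107 and 87.9 CPM with serum and 75.2, 76.3, 75.9 and 67.5 CPM without. The groups lay apart, and the serum-free libraries of WT1 to WT3 were almost equal. Its log2 fold change was -0.47 ± 0.09 (edgeR's adjusted p = 0.00498, and 1.6e-05 with the line block), and it passed in every leave-out fit, with adjusted p up to 0.0432.

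*MRPS10* encodes uS10m, a protein of the head of the subunit in bacteria. It was at 43.5, 40.1, 37.9 and 38.2 CPM with serum and 31.1, 30.4, 29.4 and 27.8 CPM without (-0.43 ± 0.07, edgeR's adjusted p = 0.00388). The 4 lines were close to one another, from -0.37 to -0.48. *MRPS23* (mS23) was at 96.4, 94.5, 92.0 and 91.3 CPM with serum and 73.1, 75.7, 79.7 and 64.7 CPM without (-0.35 ± 0.07, edgeR's adjusted p = 0.00802). Without WT1 or without WT2, *MRPS23* did not pass (adjusted p = 0.0678 and 0.0525).

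*MRPS12* encodes uS12m, whose bacterial counterpart lies at the decoding centre. It was at 62.5, 64.6, 63.5 and 82.2 CPM with serum and 49.9, 48.3, 60.6 and 48.3 CPM without. WT4 stood highest with serum and had the largest difference (-0.77), while WT3 had the smallest (-0.07). Its log2 fold change was -0.40 ± 0.11 (edgeR's adjusted p = 0.0258), and it did not pass in 5 of the 12 leave-out fits (adjusted p up to 0.0991).

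*MRPS36* bears the name of a small subunit gene, but its product is now known as a subunit of the 2-oxoglutarate dehydrogenase complex. It was at 30.5, 29.1, 31.4 and 22.5 CPM with serum and 18.9, 23.3, 23.1 and 18.4 CPM without. The serum library of WT4 lay below the serum-free libraries of WT2 and WT3. Its value of -0.44 ± 0.13 (edgeR's adjusted p = 0.0303) did not pass in 8 of the 12 leave-out fits (adjusted p up to 0.179). The other small subunit genes that fell were *MRPS15*, *MRPS22*, *MRPS2*, *MRPS5* and *MRPS7*, with log2 fold changes from -0.35 to -0.24.

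*MRPS6* was the only member that rose. It encodes bS6m, the partner of the S18 proteins on the platform of the small subunit. Its normalised read count was 25.6, 24.1, 25.1 and 26.3 CPM with serum and 33.2, 32.3, 38.1 and 44.95 CPM without. Every serum-free library lay above every serum library, and the difference was largest in WT4 (0.77) and smallest in WT1 (0.38). The log2 fold change was 0.56 ± 0.11 (SE, edgeR's adjusted p = 0.00601, and 4.42e-05 with the line block), on 746 to 2530 reads per library. Without WT3 it was 0.53 with an adjusted p of 0.0543.

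The locus of *MRPS6* also holds *SLC5A3*, an inositol transporter gene, and 9.5% of the exon bases of *MRPS6* are shared with it or with another counted gene. *SLC5A3*, which was examined after its values were seen, was at 181, 158, 202 and 236 CPM with serum and 324, 285, 341 and 594 CPM without. It was higher without serum in every line, again most in WT4 (log2 fold change 0.99 ± 0.24, edgeR's adjusted p = 0.0201). How reads on shared exons were assigned, and its part in the change of *MRPS6*, was not tested.

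The 3 human paralogs of bacterial S18 differed in level and place. *MRPS18B* (mS40) was at 78.5, 78.6, 79.7 and 82.9 CPM with serum and 75.1, 68.8, 74.5 and 67.9 CPM without, with no overlap of the groups (-0.16 ± 0.06, edgeR's adjusted p = 0.0851, and 0.0369 with the line block). *MRPS18C* (bS18m) was at 12.7, 10.7, 9.79 and 8.91 CPM with serum and 9.39, 9.92, 8.01 and 6.70 CPM without (-0.31 ± 0.16, edgeR's adjusted p = 0.183, and 0.0211 with the block). *MRPS18A* sits in the large subunit, as mL66, despite its name. It was at 10.7, 13.2, 12.1 and 14.8 CPM with serum and 11.9, 13.8, 16.6 and 12.4 CPM without (0.11 ± 0.14, edgeR's adjusted p = 0.621), higher without serum in 3 lines and lower in WT4.

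*MRPS30* also belongs to the large subunit, as mL65. It was at 130, 117, 137 and 138 CPM with serum and 126, 103, 142 and 173 CPM without (0.06 ± 0.14, edgeR's adjusted p = 0.786), lower in WT1 and WT2 and higher in WT3 and WT4. After GC correction with the line block it was at 0.28 (edgeR's adjusted p = 0.00205). *MRPS14* and *MRPS21* did not pass either, at -0.05 ± 0.08 and 0.03 ± 0.08. The levels of *MRPS14* were 25.6, 28.3, 27.3 and 26.9 CPM with serum and 23.7, 26.8, 28.7 and 25.1 CPM without, and those of *MRPS21* 76.5, 67.1, 80.1 and 82.8 CPM and 80.2, 73.4, 84.2 and 74.5 CPM. Neither group lay apart from the other.

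Grouped by ancestry, 25 of the 46 genes with a bacterial counterpart fell and 1 rose (median log2 fold change -0.29), and 11 of the 31 mitochondria-specific genes fell (median -0.19). The difference between these groups was not tested. Within the large subunit, 19 of 30 genes with a bacterial counterpart and 8 of 19 mitochondria-specific genes fell. Within the small subunit the counts were 6 of 16 and 3 of 12. The share called lower was 14.0% of all genes tested and 17.5% of the protein-coding ones. Counted by place in the ribosome, with *MRPS30* and *MRPS18A* in the large subunit and *MRPS36* left out, 27 of 51 large and 9 of 26 small subunit genes fell, and the medians were -0.28 and -0.23.

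Summed over genes, the large subunit took 2610 to 2698 CPM with serum and 2064 to 2332 CPM without. The small subunit took 1600 to 1694 CPM with serum and 1410 to 1522 CPM without. Neither sum overlapped between the conditions. The ratio of the large to the small sum was 1.63, 1.632, 1.654 and 1.584 with serum and 1.532, 1.575, 1.532 and 1.464 without, in the order WT1 to WT4. It was lower without serum in each of the 4 lines, although WT2 without serum (1.575) and WT4 with serum (1.584) were almost equal. The ratio depended on where *MRPS30*, *MRPS18A* and *MRPS36* were counted. By place in the ribosome it was 1.914, 1.903, 1.962 and 1.867 with serum and 1.832, 1.84, 1.859 and 1.864 without, so that WT4 had nearly the same ratio in both conditions.

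**Figure D3:**
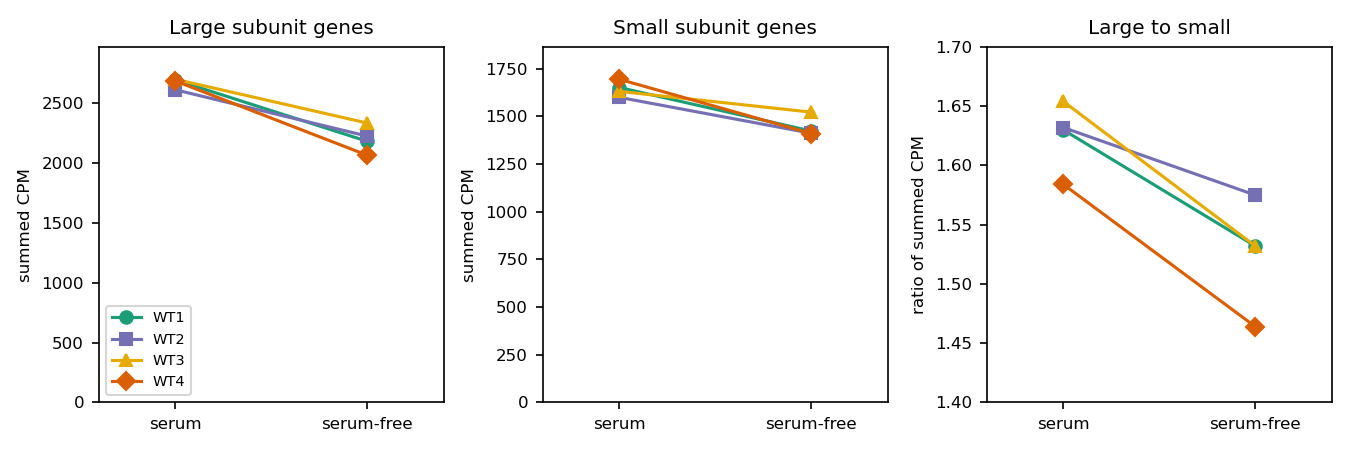
Summed normalised read counts (CPM) of the large subunit genes and the small subunit genes, and the ratio of the sums (y axis from 1.4 to 1.7), with the 2 libraries of each line joined. Both sums were lower without serum in the 4 lines, and the ratio, with genes assigned by name, went from between 1.584 and 1.654 to between 1.464 and 1.575.

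The size of the difference varied with the line and with the base composition of the genes. The median log2 difference of the large subunit genes was -0.30, -0.21, -0.20 and -0.38 from WT1 to WT4. That of the small subunit genes was -0.23, -0.19, -0.08 and -0.29. WT4 was the lowest line for 28 large and 14 small subunit genes. Among the 22 members with a GC content above 53.11%, the median was -0.09, -0.11 and -0.03 in WT1, WT2 and WT3 and -0.53 in WT4. In all GC-rich genes tested it was 0.27, 0.23, 0.24 and 0.08, so the median of these members lay below that of such genes in each line. Among the 26 members at or below 43.64% GC, it was -0.40, -0.28, -0.31 and -0.32, against -0.21, -0.14, -0.22 and -0.01 in all GC-poor genes.

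Of the members, 16 of 26 GC-poor, 15 of 30 intermediate and 6 of 22 GC-rich genes fell (61.5%, 50.0% and 27.3%). Of all genes in the same classes, 23.5%, 13.0% and 5.92% were called lower, so the calls declined with GC content in both. Over the 78 members the fitted log2 fold change and GC content had a Spearman rho of 0.35, close to the 0.36 of all 17425 genes with a known GC content. It was 0.52 over the large and 0.10 over the small subunit genes. Within lines rho was 0.47, 0.38 and 0.50 in WT1 to WT3 and -0.23 in WT4. The points of such a correlation share their libraries. When a smooth trend on GC content was removed from each library, together with the line block, 39 large and 14 small subunit genes fell and 2 genes, *MRPS6* and *MRPS30*, rose, with medians of -0.27 and -0.18. Of all genes, 24.5% were called lower and 21.7% higher in that fit. Over the members, its log2 fold change and GC content had a rho of -0.43, so among them the trend with GC content was reversed and not removed. GC-poor, intermediate and GC-rich members counted 14 of 26, 21 of 30 and 18 of 22 lower in that fit, with medians of -0.18, -0.25 and -0.41.

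**Figure D4:**
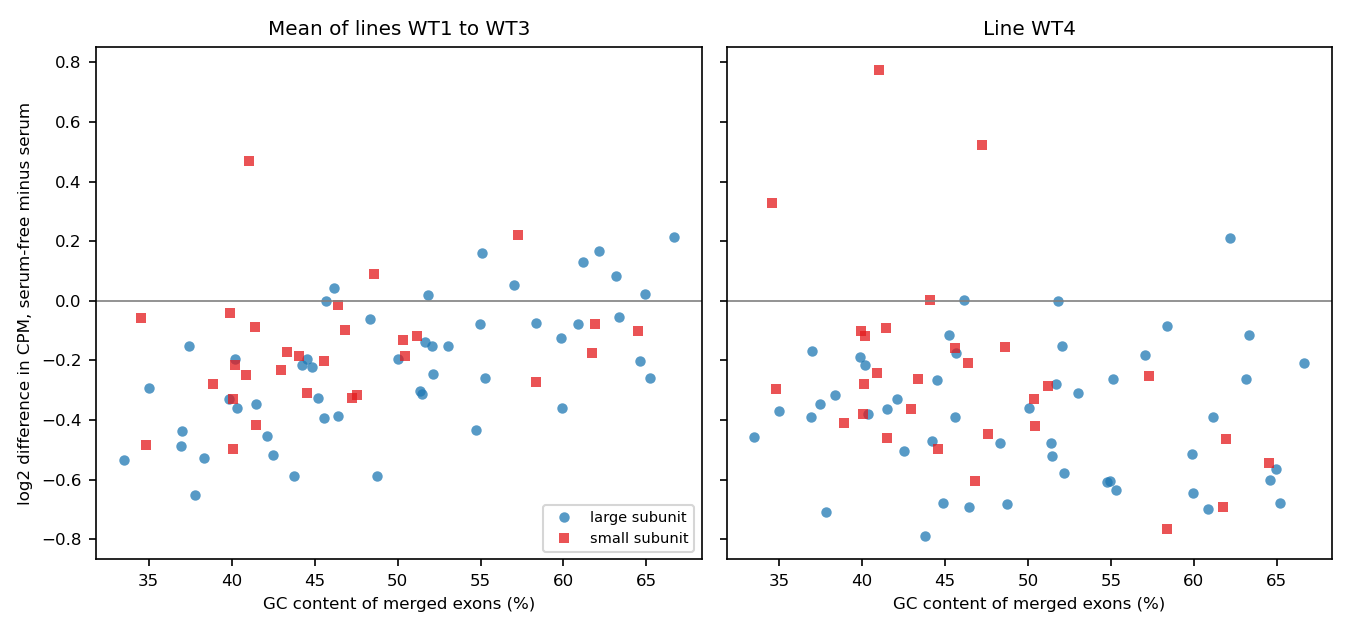
Log2 difference in CPM between the serum-free and serum libraries (y axis) against GC content (x axis), as the mean of lines WT1 to WT3 and in line WT4. GC content is that of the longest transcript of each gene, although the axis label names merged exons. Blue circles are large and red squares are small subunit genes. GC-rich members lie near 0 in WT1 to WT3 (medians from -0.03 to -0.11) and near -0.53 in WT4.

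Whether WT4 responded differently was asked with an interaction term in the fit with the line block, a test chosen after the data were seen. WT4 has 1 library per condition, so the spread in this test came from the other 3 lines alone, and WT4 was assumed to vary like them. A pass therefore cannot separate a response of the line from variation of its 1 pair of libraries. Whether WT4 responded differently stays undecided. The interaction passed for 12 members (7 large, 5 small), against 6.33% of all genes tested. *MRPS30* was higher and 11 genes were lower in WT4 (*MRPL2*, *MRPL4*, *MRPL24*, *MRPL41*, *MRPL52*, *MRPL54*, *MRPL57*, *MRPS2*, *MRPS12*, *MRPS26* and *MRPS34*). *MRPL4*, the gene of uL4m, had the smallest adjusted p. It was at 50.1, 55.9, 60.7 and 74.0 CPM with serum and 51.4, 53.9, 64.4 and 50.1 CPM without, so that its log2 fold change in WT4 was lower by 0.59 than in the other lines (-0.59, edgeR's adjusted p = 0.00166). With the GC trend removed as well, 4 members passed, each of the large subunit and lower in WT4, against 2.84% of all genes. They were *MRPL24*, *MRPL52* and *MRPL57* of the 12 (edgeR's adjusted p of 0.0124, 0.0189 and 0.0178) and *MRPL17* (0.0287).

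Differences between the lines with the condition held fixed were called for 11 members (9 large, 2 small, 14.1%), against 22.9% of all genes tested. The 5 smallest p were those of *MRPL3*, *MRPL47*, *MRPL41*, *MRPS30* and *MRPL13*, with edgeR's adjusted p of 0.00612, 0.011, 0.012, 0.013 and 0.015. WT4 had the lowest values of *MRPL3*, *MRPL47* and *MRPL13* in each condition and the highest of *MRPL41* and *MRPS30*. The count of large subunit genes moved from 9 to 24 without the serum-free library of WT4 and to 2 without the serum library of WT1, and that of small subunit genes from 2 to 13 and 2. Over the 12 leave-out fits, the counts ran from 2 to 24 and from 0 to 13.

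Per length, the members differed widely in level. The most abundant large subunit genes were *MRPL41* (87.7 ± 21.1 RPKM with serum and 93.1 ± 9.53 without, SD, n = 4), *MRPL51* (80.6 ± 5.29 and 78.1 ± 2.51 RPKM) and *MRPL3* (84.1 ± 9.49 and 58.9 ± 6.49 RPKM). With serum these 3 did not differ beyond their spread, whereas without serum *MRPL3* lay below the other two. With the length of the longest transcript in place of merged exons their order was *MRPL51*, *MRPL3*, *MRPL41* (means over 8 libraries of 123, 114 and 90.4 RPKM). By the mean over all 8 libraries, *MRPS34* was highest in the small subunit (132 ± 16.6 and 113 ± 6.73 RPKM), followed by *MRPS26* (86.2 ± 12.2 and 75.9 ± 3.55) and *MRPS21* (51.1 ± 4.56 and 52.0 ± 3.37). With serum *MRPS35* (53.0 ± 5.73 RPKM) and *MRPS21* did not differ beyond their spread. The median over both conditions was 18.4 RPKM for the large and 13.1 RPKM for the small subunit.

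*MRPS34* and *MRPS26*, both mitochondria-specific, had CPM values of 136, 136, 132 and 171 and of 83.6, 87.3, 75.1 and 104 with serum. Without serum they were at 119, 126, 133 and 117 CPM and at 78.6, 81.2, 72.8 and 75.8 CPM. In both genes WT4 was highest with serum and showed the largest difference. Neither passed the test (-0.22 ± 0.09 and -0.18 ± 0.10, edgeR's adjusted p = 0.11 and 0.195). *MRPS34* passed with the line block (adjusted p = 0.0329).

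The lowest members were *MRPL38* (0.568 ± 0.0402 RPKM with serum), *MRPL46* (1.87 ± 0.257) and *MRPL53* (4.02 ± 0.548) in the large subunit and *MRPS24* (0.307 ± 0.151), *MRPS18C* (2.16 ± 0.335) and *MRPS17* (2.26 ± 0.426) in the small. Each of these 6 genes shares exon bases with another counted gene, from 11.3% in *MRPL46* to 72.8% in *MRPL53*, and its level is therefore uncertain. *MRPS24* was at 1.299, 0.928, 0.514 and 0.458 CPM with serum and 0.616, 0.694, 0.719 and 0.675 CPM without, on 13 to 61 reads, and it shares exons with the readthrough gene *URGCP-MRPS24*. *MRPL53* was at 2.36, 3.196, 2.55 and 2.92 CPM with serum and 2.94, 2.93, 1.90 and 2.75 CPM without, and 72.8% of its exon bases are shared with *CCDC142* or others. *MRPS17* was at 5.30, 4.37, 3.67 and 5.64 CPM with serum and 4.10, 4.32, 3.90 and 3.70 CPM without.

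*MRPL46* was at 14.1, 11.9, 10.1 and 11.7 CPM with serum and 11.4, 11.3, 8.81 and 10.1 CPM without, lower in each line (-0.20 ± 0.13, edgeR's adjusted p = 0.295). *MRPL38* was at 2.04, 1.96, 1.73 and 1.87 CPM with serum and 1.64, 1.94, 3.11 and 2.17 CPM without. None of these 6 genes passed the test. In all, 27 members shared at least 10% of their exon bases with another counted gene, and 7 of these were called lower, against 30 of the 51 members with less (25.9% and 58.8%, where 14.0% of all genes tested were lower). Pseudogenes carrying a member's name existed for 36 members, and their counted reads came to 0.0311 to 0.0772% of the members' reads.

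Of the mitoribosomal proteins with other names, *CHCHD1*, a small subunit protein, fell. It was at 21.0, 14.9, 18.7 and 17.8 CPM with serum and 13.1, 14.2, 14.4 and 12.4 CPM without (-0.42 ± 0.12, edgeR's adjusted p = 0.0263), and it did not pass in 7 of the 12 leave-out fits. *DAP3*, a GTP-binding small subunit protein, did not overlap between the groups (172 ± 6.28 and 155 ± 6.71 CPM, SD, n = 4) but did not pass (-0.16 ± 0.06, edgeR's adjusted p = 0.0869). *AURKAIP1* (-0.24, adjusted p = 0.0898), *GADD45GIP1* (-0.31, 0.0588) and *PTCD3* (-0.13, 0.286) did not pass edgeR's test either, and with the line block 4 of the 5 passed, all but *PTCD3*. Of all genes, 14.0% were lower without the block and 22.4% with it. Over the leave-out fits 0 to 2 of the 5 were lower. The median of these 5 genes was -0.24, close to that of the members.

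Some genes that assemble or serve the mitoribosome fell as well. Of the assembly factors 7 of 26 tested fell and 1 rose (median -0.13), of the translation factors 6 of 20 fell (median -0.13), and of the mitochondrial tRNA synthetases and their relatives 5 of 20 fell and 1 rose (median -0.18). These are 26.9%, 30.0% and 25% lower, against 14.0% of all genes tested lower and 11.1% higher. *MALSU1*, which keeps the large subunit from joining early, fell by 0.48 (edgeR's adjusted p = 0.00449), and *NGRN*, needed for the large ribosomal RNA, by 0.38 (edgeR's adjusted p = 0.00401). *GFM1*, the elongation factor that moves the ribosome along, was at 137, 130, 128 and 118 CPM with serum and 89.5, 88.8, 86.6 and 85.5 CPM without, a fall by 0.55 (SE 0.06, edgeR's adjusted p = 0.00112). *SLIRP*, a partner of LRPPRC in stabilising mitochondrial messenger RNAs, fell by 0.47, and the synthetases *EARS2* and *MARS2* fell by 0.49 and 0.34. With the line block 12 assembly factors fell and 2 rose, 9 translation factors fell (*TRMU*, *TSFM* and *GUF1* in addition), and 10 synthetases fell and 2 rose, against 22.4% of all genes lower and 23.2% higher in that fit. The lower calls depended on the libraries, from 3 to 8 assembly factors, 2 to 8 translation factors and 2 to 9 synthetases over the leave-out fits. Upper-quartile scaling gave 3 of 20 translation factors and 3 of 20 synthetases lower, where 10.4% of all genes were called lower.

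In the list of mitochondrial DNA transcription and replication, 2 of 12 genes fell (16.7%, against 14.0% of all genes tested, median 0.01). They were *TFAM*, which packages the mitochondrial genome and starts its transcription (127 ± 14.1 CPM with serum and 88.2 ± 10.1 without, -0.52 ± 0.10, edgeR's adjusted p = 0.00707, not passed in 1 of the 12 leave-out fits with 0.0554), and *SSBP1*, the single-stranded DNA binding protein (-0.34, edgeR's adjusted p = 0.0237), which did not pass in 6 of the 12 leave-out fits. Over these fits 0 to 2 genes of the list were lower. With the line block 5 of the list fell and 1 rose, in a fit that called 22.4% of all genes lower. None of the 13 protein genes of mitochondrial DNA passed in edgeR (2 lower and 0 higher at an unadjusted p under 0.05), DESeq2 or limma voom, with a median of 0.00, and 4 were lower and 5 higher with the line block, against 22.4% and 23.2% of all genes. Of the regulators tested, 4 of 8 fell (50.0%, against 14.0% of all genes), namely *PPRC1* (-0.30), *YY1* (-0.31), *NRF1* (-0.30, edgeR's adjusted p = 0.0396) and *PPARGC1B* (-0.33). *NRF1* did not pass in 11 of the 12 leave-out fits, and the number of regulators that fell ranged from 0 to 4 in these fits. *GABPA* (-0.23, edgeR's adjusted p = 0.148, and 0.0263 with the line block) and *MYC* (-0.10, edgeR's adjusted p = 0.671) did not pass.

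The 2 mitochondrial ribosomal RNAs cannot be compared with their proteins here, since the RNA had been depleted of ribosomal RNA. *MT-RNR2* was at 2219, 694, 107 and 221 CPM with serum and 63.6, 31.9, 113 and 19.1 CPM without, and *MT-RNR1* at 1708, 563, 30.8 and 138 CPM and 48.1, 20.3, 100 and 8.94 CPM. WT3 went against the other lines in both. *MT-RNR2* passed (edgeR's adjusted p = 0.0372) but not with the line block (0.134). For comparison, 8 of 80 cytosolic ribosomal protein genes tested fell (10.0%, against 14.0% of all genes) and 1 rose (median -0.09). Over the leave-out fits, 3 to 18 were lower and 0 to 6 higher. *RPS26* (-0.48, edgeR's adjusted p = 0.0026) and *RPL26L1* (-0.44, edgeR's adjusted p = 0.00366) had the smallest p among them. With the line block, 23 fell (28.8%, against 22.4% of all genes) and 3 rose. The difference between these lists and the members was not tested.

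**Figure D5:**
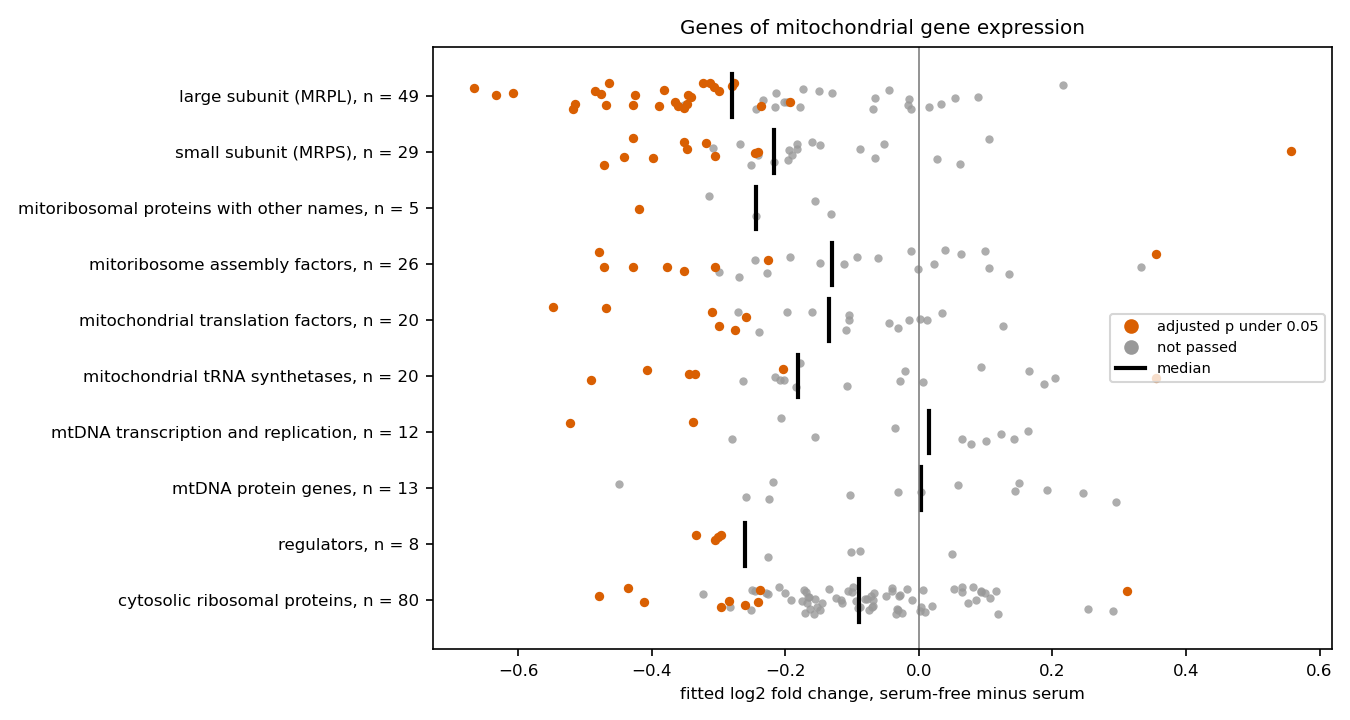
Fitted log2 fold change (serum-free minus serum, x axis) of every gene tested in the large and small subunit and in 8 related lists. Orange points passed an adjusted p of 0.05, grey points did not, and black bars are medians, from -0.28 in the large subunit to -0.09 in the cytosolic ribosomal proteins and 0.01 in mitochondrial DNA transcription and replication.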

How the data were processed

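Ribosomal RNA was removed from the RNA of 8 A375 cultures, and paired reads were sequenced. The authors deposited whole-number read counts for each gene, not normalized. The submitters' processing notes name cutadapt, TopHat2 2.0.11, HTSeq and GRCh38, whereas the study's methods name hg19 and Cufflinks. The labels were followed, and the build of the counts is not settled. The annotation release and strand setting are not given in the sources used here, so overlapping and antisense genes are uncertain.

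Genes passing filterByExpr (17671) were tested on the counts, after TMM scaling, by the quasi-likelihood F-test of edgeR 4.0.16 (R 4.3.3, robust), serum-free against serum without a block, with Benjamini-Hochberg adjustment at 0.05. Log2 differences within a line used a prior count of 2. RPKM used the length of merged exons, and GC content was that of the longest transcript of a gene. Both came from a GENCODE set placed on GRCh37. Promoter windows and positions are RefSeq's on GRCh38.p14, matched by symbol. Deviations from the condition means correlated by 0.403, 0.591, 0.456 and 0.604 between the libraries of a line and by at most 0.126 between lines, so the line pairs the samples. Alternatives were the line block, GC correction, RLE and upper-quartile scaling, DESeq2 1.42.0, limma voom 3.58.1, other filters, and libraries or lines left out. For serum-free against serum, the fits with libraries or lines left out had no line block. Tests were checked on simulated data. GC correction without the block, leaving out 2 serum libraries, the WT4 interaction and the ratio of sums by place were added after the data were seen. The members and lists were chosen with earlier results of these data known. Values in every library are given for the 5 most negative and 5 most positive members of each subunit, the 3 highest and 3 lowest in RPKM, the 5 with the smallest p between lines, and genes of special place or function, and from other lists for set names and the 2 smallest p. *PPARGC1B*, *SLC5A3*, *MRPL4*, *MRPL20*, *MRPL58* and others with fewer values fall outside this rule and were picked with their values in view.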

Additional observations from a re-analysis of the deposited data

Results flagged for a closer look

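Among 116 groups of 4 values examined, 11 held a value far from the other 3 by Dixon's ratio. Chance would flag about 1 in 20 groups, or 5.8 here, if they were independent and picked without regard to their values. These groups share their libraries, and some genes were picked for their difference between lines, so that number does not apply directly. With serum, WT4 stood apart as the lowest line for *MRPL13* (44.4 CPM, others 57.4 to 58.0) and as the highest for *MRPL41* (69.4, others 43.5 to 46.3), *MRPS12* (82.2, others 62.5 to 64.6), *MRPS34* (170.9, others 132 to 136), *AURKAIP1* (201.6, others 148 to 156) and *GADD45GIP1* (122.3, others 92.3 to 96.4). Without serum, WT4 was apart as the lowest for *MRPL13* (32.3 CPM, others 39.5 to 40.5) and *MRPS35* (67.5, others 75.2 to 76.3). WT3 without serum was apart as the highest for *MRPS12* (60.6 CPM, others 48.3 to 49.9) and for the sum of the small subunit genes (1522 CPM, others 1410 to 1423). The sum of the large subunit genes was apart in WT2 with serum, where it was lowest (2610 CPM, others 2684 to 2698).

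The interaction test of WT4 cannot separate a response of the line from variation of its 1 pair of libraries. For the members that it flagged, the log2 fold change in WT4 minus that in WT1 to WT3 is listed here. It was -0.59 for *MRPL4*, -0.53 for *MRPL24*, -0.45 for *MRPS34*, -0.52 for *MRPS2*, -0.63 for *MRPL54*, -0.38 for *MRPS26*, 0.39 for *MRPS30*, -0.49 for *MRPS12*, -0.42 for *MRPL41*, -0.42 for *MRPL57*, -0.46 for *MRPL52* and -0.42 for *MRPL2*. Each rests on 1 library of WT4 per condition, and with the GC trend removed 3 of these 12 genes passed.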

How the results depend on the processing

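The medians of both subunits stayed negative under every alternative run, from -0.32 to -0.21 in the large and from -0.27 to -0.15 in the small subunit. The number of calls was less stable. With the line as a replicate block, 17 small subunit genes were lower in place of 10, 33 large in place of 27, and 3961 genes were lower and 4106 higher over all genes. With the replicate block and GC correction, 2 small subunit genes were higher, and over all genes 4325 were lower and 3828 higher. Upper-quartile scaling gave 17 large and 4 small subunit genes lower. Without the filter, 6 small subunit genes differed between lines. With it, 2 of 29 did, where 22.9% of all genes tested differed. The share of all genes without the filter is not given here, so the 6 cannot be set against it. Without the serum libraries of WT1 and WT2, 5 large and 0 small subunit genes were lower and 0 small subunit genes higher, with 724 lower and 374 higher over all genes, on fewer samples. With a library or a line left out, lower calls ranged from 6 to 26 (large) and 2 to 11 (small), higher calls from 0 to 1 in each, and calls over all genes from 969 to 3279 lower and 620 to 2849 higher, while large and small subunit genes that differed between lines ranged from 2 to 24 and 0 to 13, and all genes from 2364 to 7580. The cause was not tested.

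Signs changed only among named genes that had not passed. With the replicate block and GC correction, values were -0.068 for *MRPL10*, -0.072 for *MRPL2*, -0.211 for *MRPL41*, -0.061 for *MRPL38*, 0.082 for *MRPS14*, -0.0028 for *MRPS21* and -0.062 for *MRPS18A*. With GC correction alone they were -0.066, -0.071, -0.213, -0.040, 0.082, -0.0056 and -0.054. With upper-quartile scaling *MRPL51* was at 0.021 and *MRPS14* at 0.012. Without the serum libraries of WT1 and WT2, values were -0.043 (*MRPL10*), -0.039 (*MRPL2*), -0.098 (*MRPL41*), -0.066 (*MRPS21*), -0.017 (*MRPS30*) and 0.47 (*MRPS24*). With a library or line left out, the ranges were -0.022 to 0.058 (*MRPL10*), -0.0041 to 0.076 (*MRPL45*), -0.0078 to 0.16 (*MRPL2*), -0.043 to 0.37 (*MRPL38*), -0.19 to 0.053 (*MRPL53*), -0.034 to 0.089 (*MRPS21*), -0.072 to 0.18 (*MRPS30*), -0.036 to 0.23 (*MRPS18A*), -0.45 to 0.11 (*MRPS24*) and -0.25 to 0.0012 (*MYC*). A fit that left a line with 1 library assumed that it varied like the others. Every member called lower was called with the block too, and among the members the block changed no other call than those given. With the longest transcript as length, median levels were 25.1 RPKM (large) and 16.6 RPKM (small), and without TMM 18.3 and 13.0 RPKM.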
